A study of Mus musculus with 2 samples.

Results

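The blood stem cell transcription factors described here are 10 genes, Hlf, Mecom, Meis1, Gata2, Hoxa9, Erg, Runx1, Tal1, Lmo2 and Gfi1b, chosen by name out of 53273 gene rows that could be matched to GENCODE M21. Levels are the counts of a gene summed over the cells of a sorting gate and scaled to CPM (counts of the gene per 1e6 counts of the gate), beside the share of cells with at least 1 count. Single cells were taken from the bone marrow of C57BL/6 mice aged 8 weeks with the Fucci reporter, and the series title concerns the expansion of quiescent hematopoietic stem cells. Fucci colours a cell by its place in the division cycle: mAG is tied to a piece of geminin, which accumulates in S, G2 and M, and mKO2 to a piece of Cdt1, which accumulates in G0 and G1. The 4 gates, in the order used here, were mAG+, mKO2neg, mKO2low and mKO2high, with 48 cells in every gate. By their names mKO2 rises from mKO2neg to mKO2high, and the labels give no mKO2 level for mAG+. The mAG+ and mKO2neg cells formed 1 library and the mKO2low and mKO2high cells the other, all of the same strain, age and tissue, and the labels name no other marker for the sort.

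These 10 proteins form a large part of the regulatory circuit that is known to set up and maintain the blood stem cell state. TAL1, LMO2, GATA2, RUNX1 and ERG, together with LYL1 and FLI1, bind many of the same enhancers, including their own, and are often called the heptad. MEIS1 and HOXA9 bind DNA together, HLF and the product of Mecom are needed for stem cell self-renewal, and GFI1B is a repressor that restrains stem cell division and is needed for red cells and platelets.

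The deposited counts carried gene labels displaced by 1 gene, so each gene was read from the row of the gene just before it in annotation order. Read this way, protein-coding genes held 92.8% of all counts, against 52.0% with the labels as written. All of the 12 genes that nearly every cell transcribes, and 9 of the 10 factors, were highest in the preceding row. The exception was Tal1, with 415 counts in the preceding row and 3359 in the row under its own label, which by the same reading belongs to Pdzk1ip1, the next gene on chromosome 4. For Erg and for Runx1, 1 annotated gene without a row lies between the factor and the row read, so the reading is less certain there. Among genes around Runx1, protein-coding genes held 86.45% of counts in the preceding rows and 78.8% with the labels as written. Around Erg these shares were 99.61% and 67.85%. Counts per gate totalled 2791584 in mAG+ cells, 1608630 in mKO2neg, 1703263 in mKO2low and 934036 in mKO2high, with medians per cell of 45177, 24633, 26851 and 14510 in the same order. The summed level of 6 dividing-cell genes (Mki67, Top2a, Ccnb1, Cdk1, Ube2c and Birc5) was 4723 CPM in mAG+ cells, 549 in mKO2neg, 93.9 in mKO2low and 58.9 in mKO2high. That sum fell along the gate order, but its last step rested on Top2a, at 46.4 CPM in mKO2low and 4.28 in mKO2high. Of the 5 genes with at least 10 counts there, 3 had ratios of mKO2low over mKO2high above 0 and 2 below. Only the interval of Top2a left out 0. The 8 stem cell surface and associated genes, among them Procr, Ly6a and Mllt3, summed to 944, 1345, 1477 and 1999 CPM in that order. Single genes did not all follow the sum. For mAG+ over mKO2high, which crosses the libraries, 5 of the 8 had a log2 ratio below 0 and 3 above it. Those above 0 were Kit at 0.24, Cd34 at 0.27 and Slamf1 at 0.63, with counting intervals that span 0. Alb, a liver gene, had counts in 32 mAG+, 21 mKO2neg, 1 mKO2low and 1 mKO2high cells, so it was found mostly in the first library, and ratios outside their counting interval without those cells are given with each comparison. A single mAG+ cell held 96.9% of that gate's Ebf1 counts together with Pax5, Cd79a and Cd79b, which are B cell genes, and this cell also had counts of 9 of the 10 factors. Counts of at least 2 of 6 B cell genes were found in 8 mAG+, 3 mKO2neg, 1 mKO2low and 2 mKO2high cells, and the part of these cells in the results was not tested. No 2 cell columns with more than 100 counts held the same values, and the columns with fewer were not compared.

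No gate had a replicate, and neither animals nor cultures were named in the labels. There was therefore no test between gates, and intervals are 95% intervals that cover counting error only. PCR reads without known molecular identifiers are not independent molecules, and the cells of a gate are not replicates. CPM are shares of what was captured, so the absolute amount of RNA per cell was not measured, and with counting at the 3' end the levels of different genes are not compared with each other.

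All 10 factors were counted in all 4 gates, and none was confined to some of them. The fold between a factor's highest and lowest gate ran between 1.41, for Lmo2, and 2.36, for Erg. By gate sum, the highest gate was mKO2high for 4 factors (Mecom, Meis1, Hoxa9 and Erg) and mKO2low for 4 (Gata2, Runx1, Tal1 and Lmo2). It was mKO2neg for Gfi1b and mAG+ for Hlf. The highest gate overlapped the next for Hoxa9, Erg, Runx1, Tal1, Lmo2 and Hlf. By the median cell with at least 5000 counts, Hoxa9 was lowest in mKO2high, at 0 CPM, and Runx1 highest in mAG+, at 94.7 CPM. With cells weighted equally, Erg was highest in mKO2neg, at 124.5 CPM. The 10 factors together made up 2191 CPM in mAG+ cells, 2598 in mKO2neg, 2716 in mKO2low and 2680 in mKO2high. Without Lmo2, the largest part of each sum, they made up 1419, 1580, 1629 and 1703 CPM in the same order, highest in mKO2high.

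**Figure D1:**
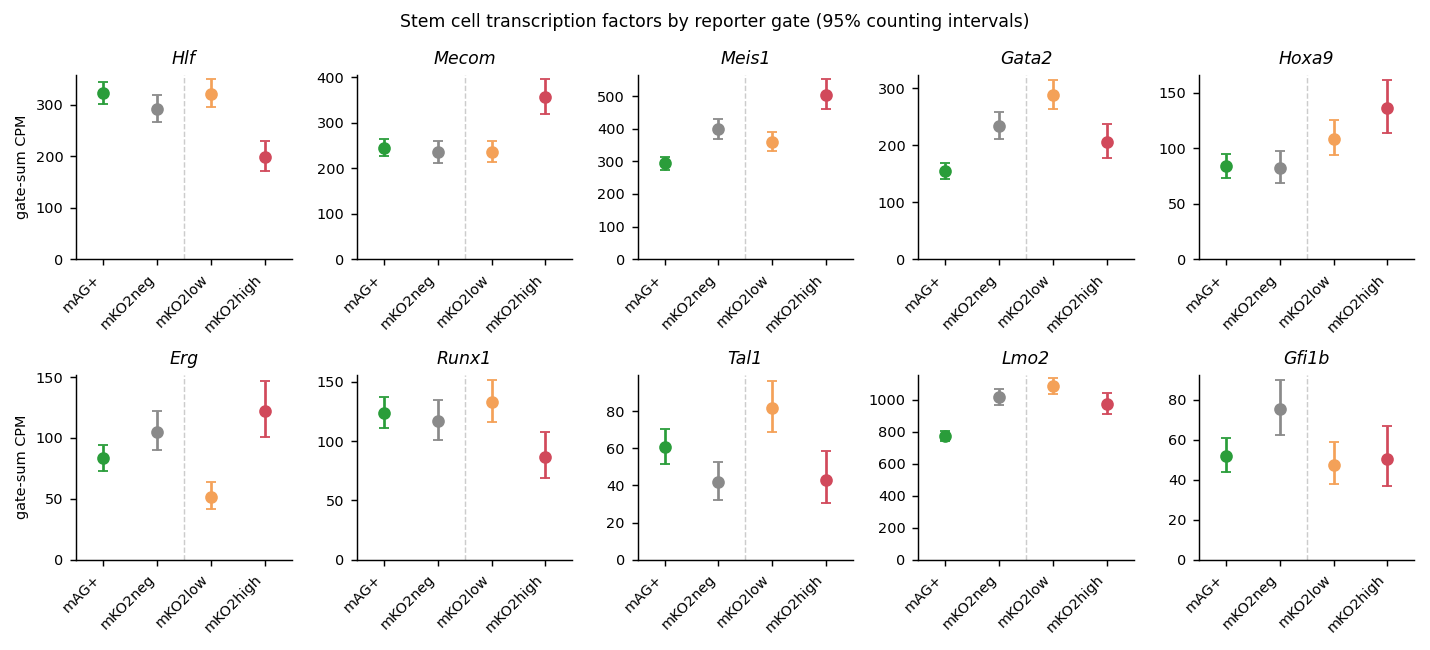
Level of each of the 10 factors in each gate, as gate-sum CPM on a linear axis that starts at 0. Points are the gate sums of 48 cells, bars are 95% counting intervals, and the dashed line parts the 2 libraries. Hlf lies lowest in mKO2high at 198 CPM, while Mecom and Meis1 lie highest there at 357 and 504 CPM.

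Hlf encodes a PAR-type basic leucine zipper factor that marks and maintains long-term stem cells, and the gene lies on chromosome 11 (GRCm38, chr11:90336536-90390895, minus strand). It stood at 322 CPM in mAG+ (301 to 344), 292 in mKO2neg (266 to 319), 322 in mKO2low (295 to 350) and 198 in mKO2high (171 to 229). The mAG+, mKO2neg and mKO2low gates had overlapping intervals, and mKO2high lay below all of them. Without the Alb-positive cells, mAG+ was above mKO2neg by a log2 ratio of 0.90. In cells with at least 5000 counts, the median Hlf level was 325 CPM in mAG+ cells, 325 in mKO2neg, 289 in mKO2low and 160 in mKO2high. The lower mKO2high level was thus also seen in the middle cell. In the higher gates, the largest cell held 12.9% of the Hlf counts of mAG+, 8.32% of mKO2neg and 8.21% of mKO2low.

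Mecom encodes a zinc finger factor, Evi1 in its shorter form, that is required for long-term stem cells (chr3:29951296-30548008, minus strand). Its level was 246 CPM in mAG+ (228 to 265), 235 in mKO2neg (212 to 260), 236 in mKO2low (214 to 260) and 357 in mKO2high (319 to 397). The first 3 gates could not be ordered within counting error, and mKO2high lay above them. Median levels over cells with at least 5000 counts ran the same way, at 235 CPM in mAG+ cells, 197 in mKO2neg, 220 in mKO2low and 359 in mKO2high.

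Meis1 encodes a TALE homeodomain factor that supports stem cell quiescence (chr11:18879817-19018985, minus strand). It had 293 CPM in mAG+ (274 to 314), 399 in mKO2neg (368 to 431), 360 in mKO2low (332 to 390) and 504 in mKO2high (460 to 552). Its lowest gate was mAG+ and its highest mKO2high, with mKO2neg and mKO2low between them and overlapping. Median levels over cells with at least 5000 counts were 260 CPM in mAG+ cells, 247 in mKO2neg, 308 in mKO2low and 386 in mKO2high, so mAG+ was not the lowest gate by its median cell. The exons of Meis1 share 18.3% of their bases with Gm37818 and Gm16140, but its last 1000 exonic bases, where counts of a 3' method fall, share 0 with any other annotated gene, as for each of the 10 factors. Hoxa9 encodes the homeodomain partner of Meis1 (chr6:52223100-52231089, minus strand), and its level was 83.8 CPM in mAG+ (73.4 to 95.3), 82.1 in mKO2neg (68.7 to 97.3), 109 in mKO2low (93.5 to 125) and 136 in mKO2high (113 to 162). Each gate overlapped its neighbour in that order, and the ends of the order did not overlap. A single mKO2high cell held 35.4% of that gate's Hoxa9 counts.

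**Figure D2:**
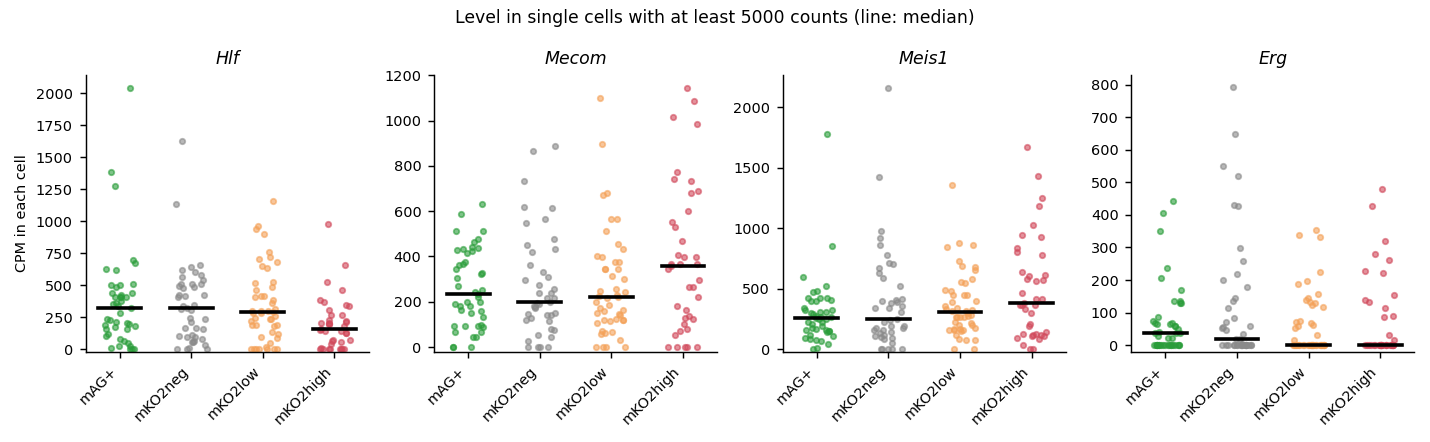
CPM of Hlf, Mecom, Meis1 and Erg in single cells with at least 5000 counts, by gate, each point being 1 cell and the line the median. For Mecom the median is 359 CPM in mKO2high and between 197 and 235 CPM in the other gates, and Erg is at 0 in the median cell of mKO2low and of mKO2high.

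Gata2, a zinc finger factor needed for stem cell survival and expansion (chr6:88193891-88207032, plus strand), was at 154 CPM in mAG+ (140 to 170), 234 in mKO2neg (211 to 259), 289 in mKO2low (264 to 316) and 207 in mKO2high (179 to 238). mKO2low was highest and mAG+ lowest, each apart from its neighbour, while mKO2neg and mKO2high overlapped. Runx1, the DNA-binding subunit of core binding factor (chr16:92601466-92826149, minus strand), was at 124 CPM in mAG+ (111 to 137), 117 in mKO2neg (101 to 135), 133 in mKO2low (117 to 152) and 86.7 in mKO2high (68.9 to 108). Neighbouring gates overlapped throughout, and mKO2high was apart from mKO2low and mAG+. Its mKO2high level rested heavily on 1 cell, which held 49.4% of the gate's Runx1 counts.

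Erg, an ETS-family factor needed for stem cell maintenance (chr16:95359169-95586593, minus strand), was at 83.1 CPM in mAG+ (72.8 to 94.5), 105 in mKO2neg (89.8 to 122), 51.7 in mKO2low (41.4 to 63.7) and 122 in mKO2high (101 to 147). mKO2low lay below the other 3 gates, and no other factor spread as widely between gates. Few cells carried these counts: 26 mAG+, 24 mKO2neg, 21 mKO2low and 16 mKO2high cells had any Erg count, and 1 mKO2high cell held 35.1% of its gate's total.

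Tal1 encodes a basic helix-loop-helix factor that specifies blood (chr4:115056426-115071755, plus strand). It had 60.5 CPM in mAG+ (51.8 to 70.4), 41.7 in mKO2neg (32.3 to 52.9), 81.6 in mKO2low (68.6 to 96.4) and 42.8 in mKO2high (30.6 to 58.3). mKO2low was apart from mKO2neg and mKO2high but not from mAG+. Lmo2, the LIM-only bridge that links TAL1 to GATA factors (chr2:103957986-103981878, plus strand), stood at 772 CPM in mAG+ (740 to 805), 1018 in mKO2neg (969 to 1068), 1087 in mKO2low (1038 to 1137) and 976 in mKO2high (914 to 1042). It was lowest in mAG+, outside the intervals of the other gates. Gfi1b (chr2:28609450-28621982, minus strand) was at 51.9 CPM in mAG+ (43.8 to 61.1), 75.2 in mKO2neg (62.4 to 89.9), 47.6 in mKO2low (37.8 to 59.1) and 50.3 in mKO2high (37.0 to 66.9). mKO2neg was above mAG+ and mKO2low and overlapped mKO2high.

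Because several of these proteins bind the regulatory DNA of their own circuit, the windows around the RefSeq starts of the genes (GRCm38.p6, 250 bases before to 50 after each start) were searched on both strands for short forms of their binding motifs. These were AGATAA for GATA factors, TGTGGT for RUNX, CAGCTG and CAGATG for the E-boxes of TAL1-type factors, CAGGAAG and CCGGAAG for ETS factors and TGACAG for MEIS. RefSeq windows matched 9 of the 10 genes, with 15 windows in all. AGATAA stood in 2 of the 15 and in 11.2% of all 32851 windows, TGTGGT in 2 and 16.8%, CAGCTG in 1 and 16.3%, CAGATG in 2 and 17.1%, CAGGAAG in 2 and 13.3%, CCGGAAG in 1 and 8.86%, and TGACAG in 2 and 19.2%. The 4 windows that hold matches to 2 or more of these factor classes are shown, 5′ to 3′ on the strand of the gene, with each match in capitals. They are Tal1 (chr4:115056176-115056475, plus strand, a GATA match and an E-box), Runx1 (chr16:92826025-92826324, minus strand, 2 RUNX matches and an ETS match), Erg (chr16:95459299-95459598, minus strand, 2 MEIS matches, a GATA match and an ETS match) and Meis1 (chr11:19018920-19019219, minus strand, a RUNX and an ETS match).
Tal1: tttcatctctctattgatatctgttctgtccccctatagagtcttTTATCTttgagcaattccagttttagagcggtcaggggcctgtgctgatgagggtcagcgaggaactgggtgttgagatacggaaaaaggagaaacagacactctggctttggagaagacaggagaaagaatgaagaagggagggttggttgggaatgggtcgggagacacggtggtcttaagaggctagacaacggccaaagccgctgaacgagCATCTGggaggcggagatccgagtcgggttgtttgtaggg
Runx1: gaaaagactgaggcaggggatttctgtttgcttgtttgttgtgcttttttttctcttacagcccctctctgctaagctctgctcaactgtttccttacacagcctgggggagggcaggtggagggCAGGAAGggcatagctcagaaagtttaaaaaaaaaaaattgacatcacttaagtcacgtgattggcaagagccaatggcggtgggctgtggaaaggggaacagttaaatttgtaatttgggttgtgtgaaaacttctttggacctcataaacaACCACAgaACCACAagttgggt
Erg: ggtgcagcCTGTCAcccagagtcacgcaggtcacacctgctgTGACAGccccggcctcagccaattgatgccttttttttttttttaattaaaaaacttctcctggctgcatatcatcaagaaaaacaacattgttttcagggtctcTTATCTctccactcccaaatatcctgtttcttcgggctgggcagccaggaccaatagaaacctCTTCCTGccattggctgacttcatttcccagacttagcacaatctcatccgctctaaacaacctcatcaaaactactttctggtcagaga
Meis1: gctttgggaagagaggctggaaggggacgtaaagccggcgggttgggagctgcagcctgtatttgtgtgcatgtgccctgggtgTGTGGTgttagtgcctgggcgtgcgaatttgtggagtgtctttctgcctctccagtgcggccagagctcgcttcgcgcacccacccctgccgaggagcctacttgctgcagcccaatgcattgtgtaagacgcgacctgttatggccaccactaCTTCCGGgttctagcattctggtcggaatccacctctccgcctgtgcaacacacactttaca
A match describes letters in the window and says nothing of binding in these cells. The paired RUNX matches of the Runx1 window and the E-box of the Tal1 window lie just after the start, and their other matches lie before it. The windows of Hlf, Hoxa9 and Gfi1b held none of these motifs.

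Between the gates of the first library, mAG+ over mKO2neg, the question is whether these factors differ between cells in S, G2 or M and cells gated as without mKO2. Meis1, Gata2, Erg, Lmo2 and Gfi1b were lower in mAG+ and Tal1 higher, by intervals that leave out 0. The log2 ratio was -0.60 for Gata2 (-0.80 to -0.40), -0.53 for Gfi1b (-0.89 to -0.17), -0.44 for Meis1 (-0.59 to -0.29), -0.40 for Lmo2 (-0.49 to -0.31), -0.34 for Erg (-0.63 to -0.04) and 0.53 for Tal1 (0.12 to 0.97). Hlf at 0.14, Mecom at 0.06, Hoxa9 at 0.03 and Runx1 at 0.08 had intervals that span 0. None of the 10 passed 2-fold in either direction, where 21.2% of 12115 genes passed it as higher and 14.6% as lower. Among genes with at least 100 counts, a cut chosen after seeing the data, the shares were 12.5% and 7.51%. Intervals lay above 0 for 1 factor (30.7% of all genes) and below 0 for 5 (27.1%), and the median ratio was -0.15 for the 10 factors and 0.06 for all genes. Weighting all cells equally put Tal1 at -0.05 and Erg at -0.82. Of the 10 ratios, 5 then lay outside their counting interval and 4 changed sign, with 9 below 0 where 5 were below 0 by gate sum. Thinning to equal depth gave the same counts, but for ratios it is also a mean over cells. It differs from equal weight only in its cutoff of 5000 counts per cell, so it is no separate check. Without the cells with an Alb count, which left 16 mAG+ and 27 mKO2neg cells, Erg was at 1.62, Hoxa9 at 1.58, Tal1 at 1.38, Hlf at 0.90, Mecom at -0.13, Gata2 at -0.22, Meis1 at -0.69 and Gfi1b at -2.20. The part of these Alb-positive cells in the ratios was not tested.

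Between the gates of the second library, mKO2low over mKO2high, the comparison sets cells with less of the G0 and G1 reporter against those with more. Here the factors divided. Hlf, Gata2, Runx1, Tal1 and Lmo2 were higher in mKO2low, and Mecom, Meis1 and Erg were higher in mKO2high. The log2 ratio was 0.92 for Tal1 (0.41 to 1.48), 0.70 for Hlf (0.46 to 0.95), 0.62 for Runx1 (0.25 to 1.00), 0.48 for Gata2 (0.24 to 0.73) and 0.15 for Lmo2 (0.04 to 0.27). It was -0.49 for Meis1 (-0.66 to -0.31), -0.59 for Mecom (-0.81 to -0.38) and -1.23 for Erg (-1.66 to -0.83). Hoxa9 at -0.32 and Gfi1b at -0.08 had intervals that span 0. Erg was the only factor past 2-fold, as lower, where 15% of 10901 genes were at least 2-fold lower and 19.6% at least 2-fold higher (7.05% and 7.95% of genes with at least 100 counts). Intervals lay above 0 for 5 factors (25.6% of all genes) and below 0 for 3 (24.7%), and the median ratio was 0.04 for the factors and 0.05 for all genes. The Erg ratio was -0.95 without the largest cell of each gate, -0.30 when cells were weighted equally and -0.69 without the Alb-positive cells, so its size rested on few cells. Runx1 was at 1.38 without its largest cell of each gate. Hlf, Mecom and Meis1 kept their directions in all 10 alternatives that read the same rows, with ratios between 0.46 and 0.80, between -0.68 and -0.51, and between -0.55 and -0.42. Gata2, Runx1, Tal1, Lmo2 and Erg kept theirs as well, while Hoxa9 and Gfi1b changed sign in 2 alternatives each. Among these alternatives, dropping the minimum of 10 counts could change no ratio, because every factor passed it.

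**Figure D3:**
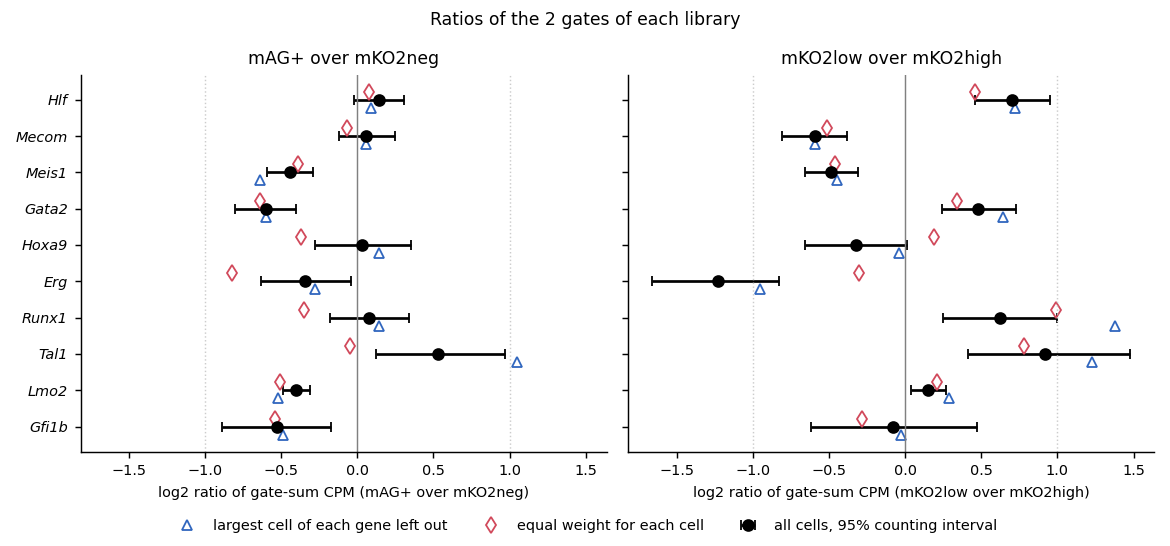
Log2 ratio of gate-sum CPM for the 10 factors within each library, mAG+ over mKO2neg at the left and mKO2low over mKO2high at the right. Black points are ratios over all cells with 95% counting intervals, triangles leave out the cell with the most counts of the gene in each gate, diamonds weight all cells equally, and dotted lines mark 2-fold. In the right panel Hlf, Gata2, Runx1 and Tal1 lie to the right of 0 and Mecom, Meis1 and Erg to the left, with Erg at -1.23 over all cells and -0.30 at equal weight.

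The other 2 comparisons cross the libraries, so the effect of the gate and that of the library cannot be told apart, and they share gates with those above. For mAG+ over mKO2high, the ends of the gate order used here, the log2 ratio was 0.70 for Hlf (0.47 to 0.94) and 0.51 for Runx1 (0.16 to 0.88). It was -0.78 for Meis1 (-0.95 to -0.61), -0.69 for Hoxa9 (-1.02 to -0.37), -0.55 for Erg (-0.88 to -0.22), -0.54 for Mecom (-0.73 to -0.34), -0.42 for Gata2 (-0.67 to -0.17) and -0.34 for Lmo2 (-0.45 to -0.23). Tal1 at 0.49 and Gfi1b at 0.05 had intervals that span 0. None passed 2-fold, where 26.2% of 11849 genes were at least 2-fold higher and 17.1% at least 2-fold lower (17.6% and 10.1% of genes with at least 100 counts). Intervals lay above 0 for 2 factors (29.9% of all genes) and below 0 for 6 (26.9%), and the median was -0.38 for the factors and 0.12 for all genes. Without the Alb-positive cells Meis1 was at -1.39, Gfi1b at -1.03, Mecom at -0.87, Hoxa9 at -0.11, Runx1 at 0.07 and Erg at 0.56. Runx1 was at 1.33 without its largest cell of each gate, and Erg at 0.03 without the deepest cell of each gate. For mKO2neg over mKO2low, Erg was at 1.02 (0.64 to 1.41) and Gfi1b at 0.65 (0.24 to 1.09), while Tal1 was at -0.96 (-1.41 to -0.54), Hoxa9 at -0.40 (-0.74 to -0.07) and Gata2 at -0.30 (-0.50 to -0.11). Erg was past 2-fold as higher and no factor as lower, where 15.3% of 11375 genes were at least 2-fold higher and 16.7% at least 2-fold lower (6.53% and 6.7% of genes with at least 100 counts). Intervals lay above 0 for 2 factors (25.6% of all genes) and below 0 for 3 (26.1%), and the median was -0.12 for the factors and 0.01 for all genes. Hlf, Mecom, Meis1, Runx1 and Lmo2 had intervals that span 0 or end at it. Without the Alb-positive cells Erg was at -0.39, Tal1 at -1.52, Hoxa9 at -1.40, Hlf at -0.56 and Meis1 at -0.15.

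Because the gates differ in depth, the share of cells with a count is given as counted and at equal depth. Lmo2 was found in 91.7% of mAG+ cells, 89.6% of mKO2neg cells, 100% of mKO2low cells and 89.6% of mKO2high cells. Meis1 was found in 91.7%, 81.3%, 95.8% and 83.3% of the cells of the same gates, and Mecom in 87.5%, 81.3%, 91.7% and 81.3%. Among the less often counted factors were Gfi1b, in 47.9% of mAG+, 33.3% of mKO2neg, 35.4% of mKO2low and 31.3% of mKO2high cells, and Tal1, in 58.3%, 35.4%, 56.3% and 22.9%. Hoxa9 was counted in fewer cells at each step of the gate order, with 75% of mAG+ cells (60.4% to 86.4%), 60.4% of mKO2neg, 56.3% of mKO2low and 39.6% of mKO2high cells (25.8% to 54.7%). That order runs against its level in CPM and is not read as a difference: the share expected when each cell is thinned to 5000 counts was 29.6% in mAG+ cells, 33.1% in mKO2neg, 32.5% in mKO2low and 28.5% in mKO2high. Thinned shares of Hlf were 67.4%, 68.2%, 66.8% and 54.1% in gate order, lowest in mKO2high, the gate of its lowest CPM. Thinned shares of Meis1 were 67.9%, 68.0%, 75.4% and 77.7%, and those of Mecom 64.3%, 63.3%, 63.7% and 70.9%, both highest in mKO2high. For Gata2 they were 45.5%, 58.8%, 64.9% and 45.2%, highest in mKO2low. As a background, 10 genes that marrow does not transcribe, Alb and Apoa1 left aside, were found in at most 8.33% of mAG+, 4.17% of mKO2neg, 0% of mKO2low and 4.17% of mKO2high cells, below the share of every factor in every gate. Alb itself was found in 66.7% of mAG+ and 43.8% of mKO2neg cells, and in 2.08% of mKO2low and 2.08% of mKO2high cells. The shares of Erg, Tal1 and Gfi1b in mAG+ and of Tal1 and Gfi1b in mKO2neg lie below that of Alb. These shares alone therefore do not set the factors apart from Alb there, and their levels and ratios in those gates are given with that limit.

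**Figure D4:**
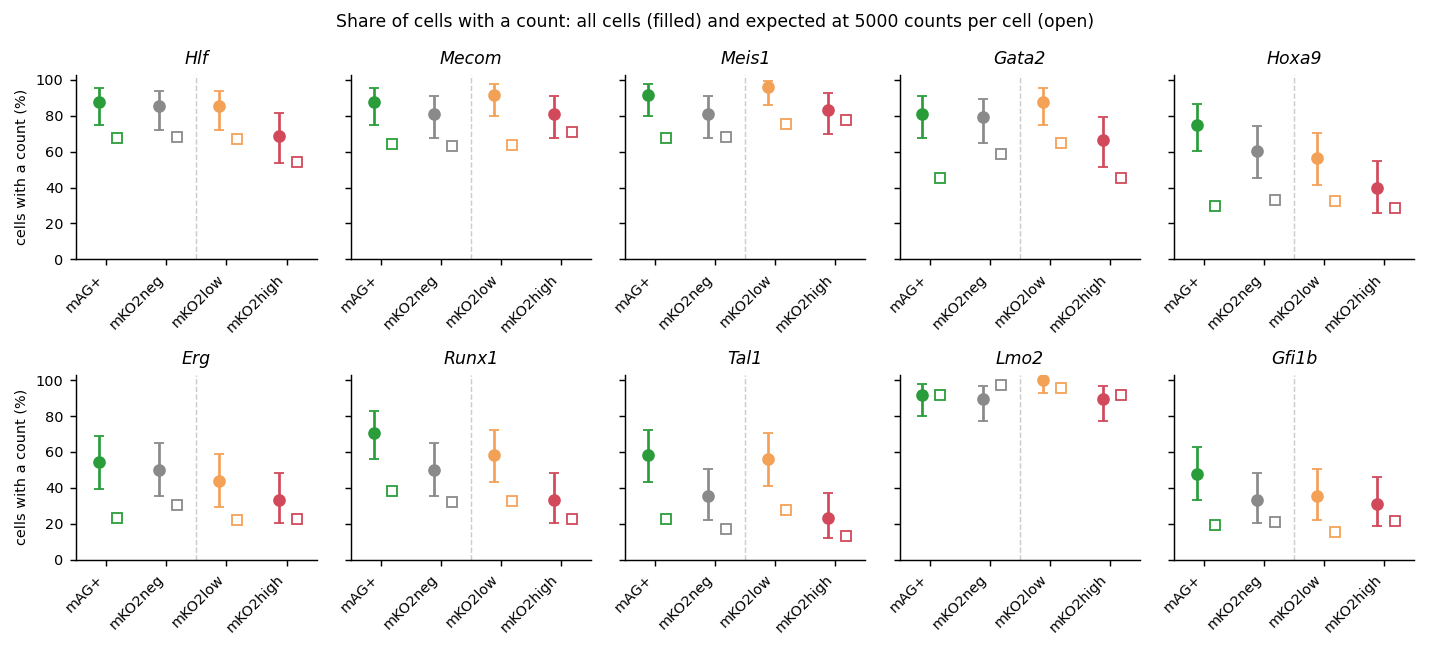
Share of cells with a count of each factor by gate, in percent. Filled points are all 48 cells of a gate with exact 95% intervals, open squares are the shares expected with each cell thinned to 5000 counts, and the dashed line parts the libraries. The order of the filled points of Hoxa9 across the gates, between 75% and 39.6%, is not seen in its open squares, which lie between 28.5% and 33.1%.

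The median cell had counts of 8 of the 10 factors in mAG+ (quartiles 6 and 9), 7 in mKO2neg (5.75 and 8), 7 in mKO2low (6 and 8) and 5 in mKO2high (5 and 7). At least 5 factors were counted in 43 mAG+, 42 mKO2neg, 47 mKO2low and 39 mKO2high cells of 48. At 5000 counts per cell the expected median number was 4.53 in mAG+ cells, 4.86 in mKO2neg, 5.10 in mKO2low and 4.30 in mKO2high, so the gates lay within 1 factor of each other once depth was set equal. Cells with none of the 10 numbered 2 in mAG+ cells, 4 in mKO2neg, 0 in mKO2low and 3 in mKO2high, where 3, 5, 0 and 9 cells had under 5000 counts.

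**Figure D5:**
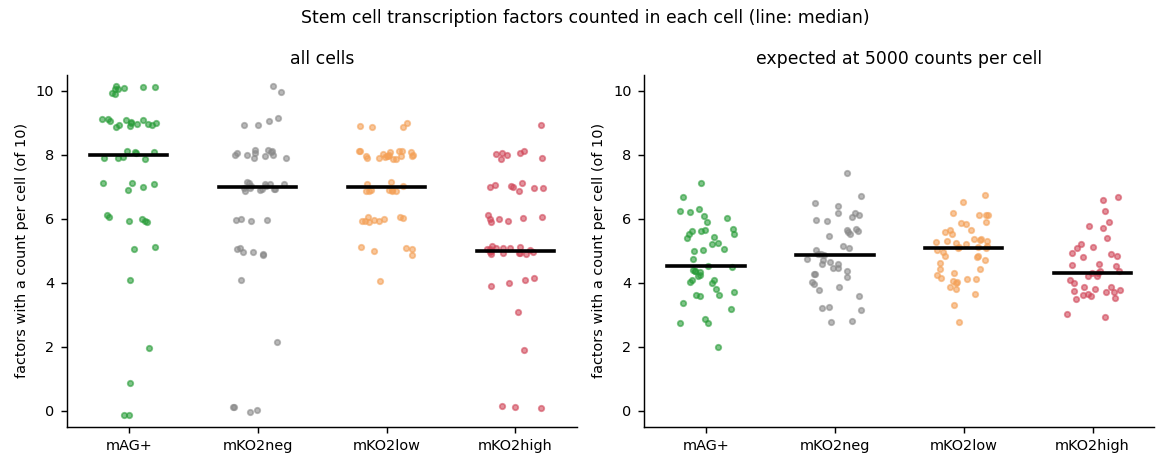
Number of the 10 factors with a count in each cell by gate, over all cells at the left and the number that 5000 counts per cell would give at the right, each point being 1 cell and the line the median. Medians at the left are 8, 7, 7 and 5 in gate order, and at the right they lie between 4.30 and 5.10.

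Within gates, correlations between the factors from cell to cell were near 0, which in counts this sparse is no finding. Over 175 cells with at least 5000 counts, Pearson's r of log2(CPM + 1) around the gate mean ran between -0.15 (Hoxa9 with Gfi1b) and 0.20 (Gata2 with Lmo2) for the 45 pairs, with a median of 0.02. Mecom with Runx1 and Hlf with Hoxa9 were at 0.19, and no pair reached 0.4. Among 6623 other genes, those most like a factor were mt-Nd6 at 0.45 and Rps2 at 0.40 for Lmo2 and Crebbp at 0.40 for Gata2, and for the other 8 factors no gene reached 0.4. These points share libraries, and sparse counts and unequal depth bear on every r, so the values are a description.

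The genes of the wider network, described from here on, were not recomputed under the alternative settings, such as equal cell weight or leaving out Alb-positive cells. The heptad members outside the list are Lyl1 and Fli1. Lyl1, the relative of Tal1, was at 329 CPM in mAG+ cells, 343 in mKO2neg, 388 in mKO2low and 458 in mKO2high, with a log2 ratio of -0.06 (-0.21 to 0.09) for mAG+ over mKO2neg and -0.24 (-0.42 to -0.06) for mKO2low over mKO2high. Fli1, the relative of Erg, was at 123 CPM in mAG+ cells, 68.4 in mKO2neg, 139 in mKO2low and 118 in mKO2high, so its ratio for mAG+ over mKO2neg was 0.84 (0.53 to 1.17), where that of Erg was -0.34.

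Of 17 partners that sit in complexes with these factors, 2 were at least 2-fold higher and 1 lower in mAG+ over mKO2neg, where 21.2% and 14.6% of all genes were, with a median of 0.09. Cbfb, which pairs with RUNX1, was at 130 CPM in mAG+ and 37.3 in mKO2neg (log2 ratio 1.79, 1.40 to 2.22), where Runx1 itself was at 0.08. Tcf12, an E-protein that pairs with TAL1, was at 1.61 (1.17 to 2.10), and Ssbp3, which binds LDB1, at -1.40 (-1.79 to -1.04). Ldb1, the scaffold that LMO2 binds, was at 0.60. In mKO2low over mKO2high 4 of the 17 partners were at least 2-fold higher and 1 lower, where 19.6% and 15% of all genes were, with a median of 0.19. The higher ones were Rcor1, a subunit of the LSD1 corepressor that GFI1B recruits, at 2.12, the E-protein Tcf3 at 1.56, Ssbp3 at 1.47 and the corepressor Ctbp2 at 1.35, and the lower one was Lmo4 at -1.48. Cbfb was at 0.76 and Ldb1 at 0.19 there. Rcor1 rested on 60 counts in mKO2low and 7 in mKO2high, and 1 cell held 71.4% of the Ctbp2 counts in mKO2high.

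Of 18 paralogs, 16 passed the minimum of 10 counts for mAG+ over mKO2neg, and 13 of those had ratios below 0, as did 47.2% of all genes, with medians of -0.75 for the paralogs and 0.06 for all genes. At least 2-fold lower were 6 and higher 1, where 14.6% and 21.2% of all genes were. The lower ones were Tef at -2.85, Meis3 at -1.95, Nfil3 at -1.69, Hoxb5 at -1.56 and Hoxa7 at -1.12, as well as Gata1, with 0 counts in mAG+ and 13 in mKO2neg, or at least 7.52-fold lower at the floor of 3 counts per gate. Meis2 had 21 counts in mAG+ and 0 in mKO2neg. It was 4.03-fold higher at that floor, and its interval began at a log2 ratio of 1.59. Hoxb5, a marker of long-term stem cells, was at 28.7 CPM in mAG+ cells, 85.2 in mKO2neg, 17.6 in mKO2low and 51.4 in mKO2high. In mKO2low over mKO2high, 15 paralogs passed the minimum, of which 3 were at least 2-fold higher and 6 lower, where 19.6% and 15% of all genes were. Hoxb4 at -1.54, Hoxb5 at -1.51, Hoxa10 at -1.07, Gfi1 at -2.31, Meis3 at -3.27 and Ets1 at -1.0 were at least 2-fold lower, the interval of Ets1 spanning 0. Tef at 1.40 and Runx2 at 1.19 were at least 2-fold higher, as was Gata1, with 13 counts in mKO2low and 0 in mKO2high. Gata1 was 2.38-fold higher at the floor, but its interval began at a log2 ratio of 0.74, under 2-fold. The median was -0.34. Several of these ratios rested on few cells. In mAG+, 1 cell held 81.3% of the Tef counts, 1 cell 78.9% of the Nfil3 counts and 1 cell 90.5% of the Meis2 counts. In mKO2neg, 1 cell held 100% of the Meis3 counts and 1 cell 76.9% of the Gata1 counts. All 13 Gata1 counts of mKO2low were in 1 cell, and so were all 11 Gfi1 counts of mKO2high. For Tef, 1 cell held 61.8% of the mKO2low counts and 1 cell 81.8% of the mKO2high counts.

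Among 15 other stem cell factors, Mycn at -2.48, Egr1 at -1.71, Nr4a1 at -1.17 and Nkx2-3 at -1.01 were at least 2-fold lower in mAG+ over mKO2neg and Zbtb16, with 30 counts in mAG+ and 2 in mKO2neg, higher at 2.72, where 14.6% of all genes were lower and 21.2% higher. All 30 of those Zbtb16 counts came from 1 cell. The median of the 15 was -0.32. Mycn was at 50.1 CPM in mAG+ cells, 282 in mKO2neg, 211 in mKO2low and 212 in mKO2high, lowest in the cycling gate. The immediate early factor Egr1 was at 59.8 CPM in mAG+ cells, 196 in mKO2neg, 257 in mKO2low and 452 in mKO2high. In mKO2low over mKO2high, Tcf15 at 1.5 and Foxo3 at 1.16 were at least 2-fold higher, and Ikzf2 at -1.29 and Nr4a1 at -1.12 lower, where 19.6% and 15% of all genes were, with a median of 0.04 for the 14 past the minimum. Of 11 lineage factors, 8 passed the minimum for mAG+ over mKO2neg and 5 for mKO2low over mKO2high, with medians of 0.42 and 0.46. Spi1 (PU.1), which antagonises GATA factors, was at 119 CPM in mAG+ cells, 235 in mKO2neg, 161 in mKO2low and 382 in mKO2high. Its log2 ratio was -0.98 (-1.19 to -0.76) for mAG+ over mKO2neg and -1.24 (-1.48 to -1.02) for mKO2low over mKO2high. Zfpm1 (FOG1), the cofactor of GATA1, was at 1.43 and Irf8 at -1.89 in mAG+ over mKO2neg. Cebpa had 15 counts in mAG+, all in 1 cell, and 0 in mKO2neg. It was 2.88-fold higher at the floor of 3 counts, and its interval began at a log2 ratio of 1.05. Ebf1 at 4.0 and Pax5 at 2.26 in the same comparison rested on the mAG+ cell with B cell genes described above.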

How the data were processed

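Per the labels' protocols, single cells were processed by a modified Smart-seq2 method that enriches the 3' ends of transcripts. The deposited values are whole-number counts for each gene row in each cell, not normalized by the authors as far as the files show. HISAT2, HTSeq 0.11.3, Seurat and the mm10 build are named in the submitters' processing notes; the annotation release and any use of molecular identifiers are details not given in the sources used here. The deposited cell table gave library and gate.

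The 10 factors and the gene lists were chosen with earlier results of these data known. Rows were matched by ID to GENCODE M21, and 105 rows without a match, with 0.222% of the counts, counted only toward totals. CPM intervals are exact Poisson, shares exact Clopper-Pearson, and log2 ratios (prior count of 1, at least 10 counts over both gates) exact conditional binomial intervals. The floor of 3 counts was 1.07 CPM in mAG+ cells, 1.86 in mKO2neg, 1.76 in mKO2low and 3.21 in mKO2high. Thinned shares are expected values at 5000 counts per cell, leaving out 3 mAG+, 5 mKO2neg, 0 mKO2low and 9 mKO2high cells. Doublets were not called. Of the listed network genes, those past 2-fold within a library were named, with Lyl1, Fli1, Ldb1, Cbfb, Spi1 and Gata1 in any case (a further gene of that rule is not reported here), and genes correlated with a factor were named where r reached 0.4. Scaling alternatives were edgeR 4.0.16 TMM factors and DESeq2 1.42.0 size factors in R 4.3.3, used for scaling alone. The scripts ran in Python 3.11.15 with numpy 2.4.6, scipy 1.17.1, pandas 2.3.3 and matplotlib 3.10.9, and were tested on simulated data. Leaving out cells with an Alb count was chosen after seeing the data.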

Additional observations from a re-analysis of the deposited data

How the results depend on the processing

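No paired analysis was possible because each library is 1 sample and the groups share a single replicate number. The 10 factors gave 400 ratios under 10 alternatives that keep the rows. Of these, 344 stayed within their counting interval and 56 lay outside it. The 344 overstate how far the ratios were tested. Dropping the minimum of 10 counts could change none, because every factor passed it. A prior count of 5, TMM and size factor scaling, and leaving out poorly covered cells kept all 10 ratios per comparison within their intervals. All 56 came from equal weight, thinning, or leaving out the largest cell, the deepest cell or Alb-positive cells. Of 27 ratios whose interval leaves out 0, 4 changed sign somewhere: Erg and Tal1 in mAG+ over mKO2neg, Erg in mAG+ over mKO2high and Erg in mKO2neg over mKO2low. TMM and size factor scaling changed no direction. Counts past 2-fold are 0 to 1 of 10 and moved easily. In mAG+ over mKO2neg, 1 factor was higher without the largest cell of each gene, and 3 were higher and 1 lower without cells with an Alb count, a setting chosen after seeing the data. In mKO2low over mKO2high, 0 were lower with equal weight (cells with at least 1000 counts), thinning, without the largest or the deepest cell, or without Alb-positive cells, and 2 were higher without the largest cell. In mAG+ over mKO2high, 1 was higher without the largest cell and 2 were lower without Alb-positive cells. In mKO2neg over mKO2low, 0 were higher with equal weight, thinning, a prior count of 5, without the largest cell or without Alb-positive cells, while 1 was lower without the largest cell and 2 were lower without Alb-positive cells, where Erg turned to -0.39. Thinning moved the median number of factors per cell to 4.53, 4.86, 5.10 and 4.30 in gate order. The row under the own label holds another gene under the displaced reading: there 1 was higher and 2 lower in mAG+ over mKO2neg, 3 lower in mKO2low over mKO2high with Erg at 0.32, 3 lower in mAG+ over mKO2high, 0 higher in mKO2neg over mKO2low, and the medians per cell were 2.5, 2, 2 and 2. The following row gave 2 lower, 2 lower, 1 higher and 2 lower, and 3 higher in the same comparisons, with medians of 1 in each gate. With 1 sample per gate the depth limits counting error alone, and the spread between animals is unknown. The cause of these shifts was not tested.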
